A study of Mus musculus with 23 samples.

Results

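The genes described here encode the nuclear-encoded proteins of the mitochondrial respiratory chain and the ATP synthase in mouse bone marrow progenitors. They were taken by symbol: Ndufa, Ndufb, Ndufc, Ndufs and Ndufv for complex I (assembly factors named Ndufaf left out), Sdha to Sdhd for complex II, Uqcr for complex III, Cox4i, Cox5, Cox6, Cox7 and Cox8 for complex IV, and Atp5 for complex V. Among 19937 genes with a probe set of 1 symbol, 86 met this rule, with 111 probe sets between them. Of these genes 68 had 1 probe set, and each of the other 18 was read from its brightest, by the mean over all arrays. Complex I held 36 of the genes, complex II 8, complex III 8, complex IV 17 and complex V 17. The symbols Sdhaf1 to Sdhaf4 (assembly factors), Cox7a2l (a factor that joins complexes into supercomplexes) and Ndufa4l2 also fell under the rule, so that 80 of the 86 are subunits.

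The respiratory chain passes electrons from NADH (complex I) and succinate (complex II) through ubiquinone, complex III and cytochrome c to oxygen at complex IV. Complexes I, III and IV pump protons across the inner mitochondrial membrane, and complex V uses the gradient to make ATP. Blood stem cells are known for relying more on glycolysis than the progenitors they form, and acute myeloid leukaemia cells are known for depending on oxidative phosphorylation. The subunits encoded by mitochondrial DNA were not analysed here.

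The arrays profiled sorted marrow populations of mice with floxed C/EBPa (gene Cebpa), a transcription factor needed to form granulocyte-monocyte progenitors, to ask what its loss does before and after transformation by MLL-AF9, a leukaemia fusion gene. Knockout mice carried Mx.1-Cre and C/EBPa f/f, and control mice carried C/EBPa f/f without Cre. Both received 3 injections of poly I:C, which induces the Mx1 promoter through interferon and so acts in many cell types. RNA was amplified as a whole transcriptome and hybridised to arrays of 1 colour, 23 in all, in 9 groups.

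The leukaemic groups were L-GMPs, leukaemia cells with a GMP-like surface. Knockout L-GMPs (GFP+) came from 1 primary leukaemia (1 array) and from secondary recipients of that same leukaemia (2 arrays), so they stand for 1 leukaemia. Control L-GMPs came from primary recipients (2 arrays) and from secondary recipients (2 arrays) of control KSL cells with MLL-AF9. Non-leukaemic knockout cells carrying MLL-AF9 (GFP+) came from recipients of knockout KSL cells as CMPs (common myeloid progenitors, gated Lin- c-kit+ Sca1- CD34+ FcrRII/III-, 3 arrays from 3 mice) and as KSLs (Lin- Sca-1+ c-kit+ cells, enriched for stem cells, 2 arrays from 2 of the same mice). Cells without the fusion gene were knockout CMPs (4 arrays), control GMPs (granulocyte-monocyte progenitors, 3 arrays) and control CMPs (4 arrays), each taken 5 days after poly I:C. For the MLL-AF9 groups, KSLs were cultured in serum-free medium with cytokines that included SCF (100 ng/ml) and IL-3 (10 ng/ml), infected with an MSCV retrovirus that expresses the fusion gene with GFP, and given with congenic marrow to lethally irradiated congenic mice. Knockout recipients were given vectors expressing IL-3 and GM-CSF (1 mg, 2 to 4 months after transplantation) so that leukaemia could form. The labels do not say whether the non-leukaemic donors had received them.

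Cebpa itself followed the labels: its log2 level was 4.33 to 5.55 on the 12 arrays of knockout cells, against 7.19 to 7.96 on the 11 arrays of control cells. The labels give a mouse of origin for few arrays, so the tests speak of spread among these arrays, part of which may be technical. Level means log2 array signal throughout, changes are differences of log2 levels, and a change was called at an adjusted p below 0.05 in limma's moderated test over all 19937 genes. In sorted bulk samples fewer cells of a type and less RNA per cell cannot be told apart. Granulocyte-monocyte markers (8 genes) had median levels of 9.85 to 11.28 in the L-GMPs and 9.20 to 11.65 in control CMPs and GMPs. The same list was at 6.11 to 7.83 in knockout CMPs and at 4.98 to 5.69 in the MLL-AF9 knockout CMPs and KSLs. Lymphocyte markers (5 genes) had median levels of 5.95 to 6.04 in MLL-AF9 KSLs, 5.40 to 5.69 in primary control L-GMPs and 4.09 to 5.72 on the other arrays, although Ms4a1 averaged at most 3.62 in any group, near the floor of 3. Stromal markers (6 genes) were at 5.29 to 5.90, and Lepr averaged at most 3.13 in any group.

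Most of these genes were well above the floor of the values. Mean levels over the 23 arrays were at least 8 for 72 genes and under 7 for 9 genes. Cox7b2, a testis form of a complex IV subunit, was at the floor on 8 of 23 arrays and reached 3.33 at most. Levels of different probe sets are not compared with each other here, since probes differ in brightness. Probe sets of 1 gene did not always run together: the correlation with the one used was lowest for Atp5g1 (r = -0.09 over 23 arrays), Ndufab1 (r = -0.02), Atp5pb (r = 0.15) and Atp5md (r = 0.18).

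Across the 9 groups, 67 of the 86 genes (77.9%) differed in limma's F test, against 45.3% of all genes. Expression level bears on that share: among genes with a mean level of at least 8, 84.7% of the respiratory chain genes and 70.9% of all genes passed. By complex, 30 of 36 genes passed in complex I, 5 of 8 in complex II (all 4 subunits and 1 of 4 assembly factors), 8 of 8 in complex III, 10 of 17 in complex IV and 14 of 17 in complex V. The range of the 9 group means had a median of 0.67 and was at least 1 for 13 genes. Complex III had the widest median range (0.88) and complex IV the narrowest (0.56). Ranges of complex I (0.75), complex II (0.71) and complex V (0.62) lay between them.

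The median level over all 86 genes was 8.97, 9.13, 9.08 and 9.18 on the knockout CMP arrays, against 9.34, 9.37, 9.57 and 9.50 on the control CMP arrays. Control GMPs were at 9.51, 9.45 and 9.56, and MLL-AF9 knockout CMPs at 9.39, 9.49 and 9.46. MLL-AF9 knockout KSLs were at 9.28 and 9.14. Knockout L-GMPs were at 9.35 (primary), 9.14 and 9.36 (secondary), and control L-GMPs at 9.19 and 9.34 (primary) and 9.56 and 9.44 (secondary). Knockout CMPs were thus the low group without overlap against control CMPs, control GMPs and MLL-AF9 knockout CMPs, whereas the L-GMPs of both genotypes spanned much of the whole range. Of the 86 genes, 24 had their lowest group mean in knockout CMPs and 24 in MLL-AF9 knockout KSLs. The highest group mean fell in control GMPs for 29 genes and in secondary control L-GMPs for 25.

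**Figure D1:**
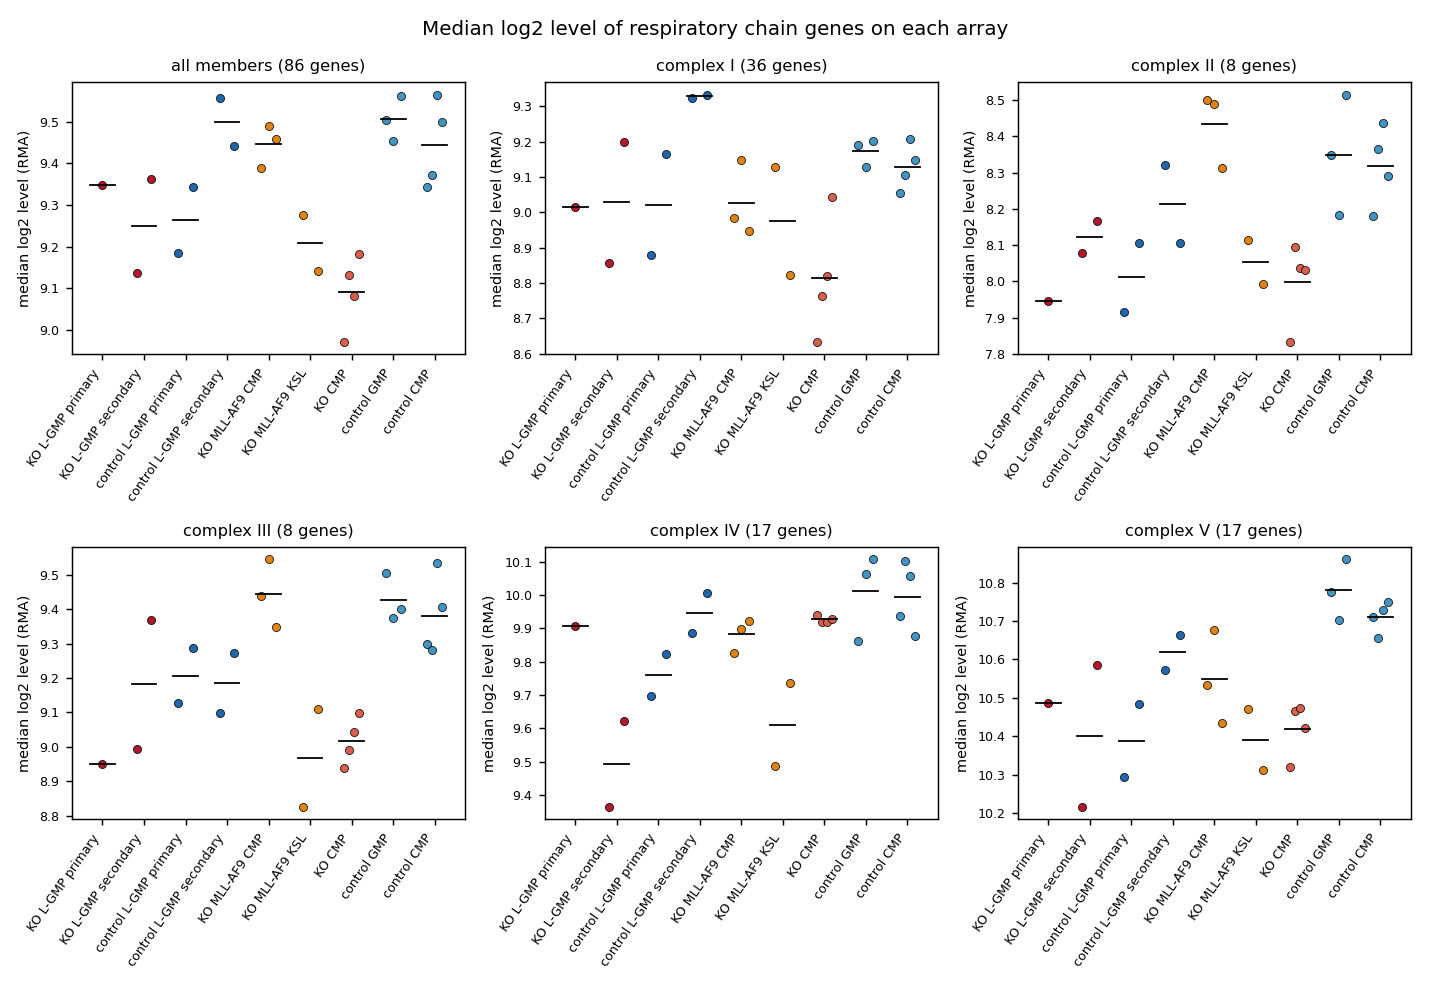
Median log2 level of the respiratory chain genes on each of the 23 arrays, by group, for all 86 genes and by complex; each point is 1 array. The 4 knockout CMP arrays (8.97 to 9.18 over all genes) lie below the 4 control CMP arrays (9.34 to 9.57).

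CMPs without C/EBPa had lower transcript levels of genes of all 5 complexes. In knockout against control CMPs, 18 of the 86 genes fell (20.9%) and 0 rose, where 2.64% of all genes fell and 2.27% rose (4.91% in all). All 18 had knockout arrays entirely below the control arrays. Changes of 81 of the 86 genes were below 0, with a median of -0.30, beside a median of 0 over all genes. The knockout and control arrays did not overlap for 58 genes, all lower in the knockout (67.4%, against 11.3% of all genes lower and 9.86% higher without overlap). Among genes with a mean level of at least 8, the share called in either direction was 23.6% for the respiratory chain and 12.6% for all genes. Of the called genes Ndufb8 alone passed 1.5-fold.

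Complex I held 12 of the 18 genes that fell, and all 36 of its genes had changes below 0 (median -0.33). Ndufb8 (probe set 10468016, chromosome 19), an accessory subunit of the membrane arm, had levels of 8.74, 8.75, 8.87 and 9.05 in knockout CMPs, against 9.48, 9.33, 9.51 and 9.55 in control CMPs. Every knockout array was below every control array, and the change was -0.62 ± 0.12 (SE), a 1.53-fold fall (adjusted p = 0.00526).

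Core subunits that carry electrons were among the 12: Ndufv1, Ndufs7 and Ndufs8 fell, while Ndufs1 (-0.33, adjusted p = 0.177) and Ndufv2 (-0.26, adjusted p = 0.151) did not pass. Ndufv1 (probe set 10464572, chromosome 19), which binds NADH and its flavin, was at 7.74, 8.05, 7.85 and 8.06 in knockout CMPs, against 8.28, 8.41, 8.56 and 8.59 in control CMPs. Its change was -0.53 ± 0.12 (adjusted p = 0.0175). Ndufs7, an iron-sulfur subunit near the quinone site, was at 7.0, 7.33, 7.20 and 7.22 in knockout CMPs, against 7.58, 7.61, 7.90 and 7.76 in control CMPs. Its arrays did not overlap either, and the change was -0.53 ± 0.12 (adjusted p = 0.0183). Ndufs8, which holds a neighbouring pair of iron-sulfur clusters, averaged 8.34 in knockout and 8.86 in control CMPs, a change of -0.52 ± 0.14 (adjusted p = 0.0359).

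Accessory subunits of complex I made up the rest. Ndufa1, a small X-linked subunit of the membrane arm, changed by -0.50 ± 0.13 (adjusted p = 0.0281), and Ndufs6, a zinc-binding subunit of the NADH-oxidising module, by -0.45 ± 0.10 (adjusted p = 0.0133). Ndufb2, of the membrane arm, was at 8.18, 8.32, 8.27 and 8.58 in knockout CMPs, against 8.79, 8.74, 8.88 and 8.71 in control CMPs. The groups did not overlap, and the change was -0.45 ± 0.09 (adjusted p = 0.0088). Ndufa2, of the peripheral arm, changed by -0.43 ± 0.11 (adjusted p = 0.029). Ndufb7, Ndufa4, Ndufc2 and Ndufa8 fell by 0.43, 0.42, 0.34 and 0.30 on the log2 scale. Ndufa4, named for complex I, is now known as a subunit of complex IV.

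The other complexes gave 6 of the 18 calls. In complex II, Sdha, the flavoprotein that oxidises succinate, fell by 0.28 (adjusted p = 0.0446). Complex III had a median change of -0.36, with 7 of 8 genes below 0 and 1 called. Uqcr10, a small subunit of it, averaged 10.14 in knockout and 10.50 in control CMPs, a change of -0.35 ± 0.07 (adjusted p = 0.00826). Cox4i1, the common form of a regulatory subunit of complex IV, fell by 0.37. In complex V, Atp5k (subunit e of the membrane part), Atp5mpl (a small proteolipid) and Atp5o (part of the peripheral stalk) fell by 0.41, 0.38 and 0.37, and all 17 genes had changes below 0. Complex IV had the smallest median change (-0.22), with 14 of 17 genes below 0. The 2 largest positive changes, Cox7a2l at 0.17 and Sdhaf2 (which attaches flavin to Sdha) at 0.08, did not pass.

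**Figure D2:**
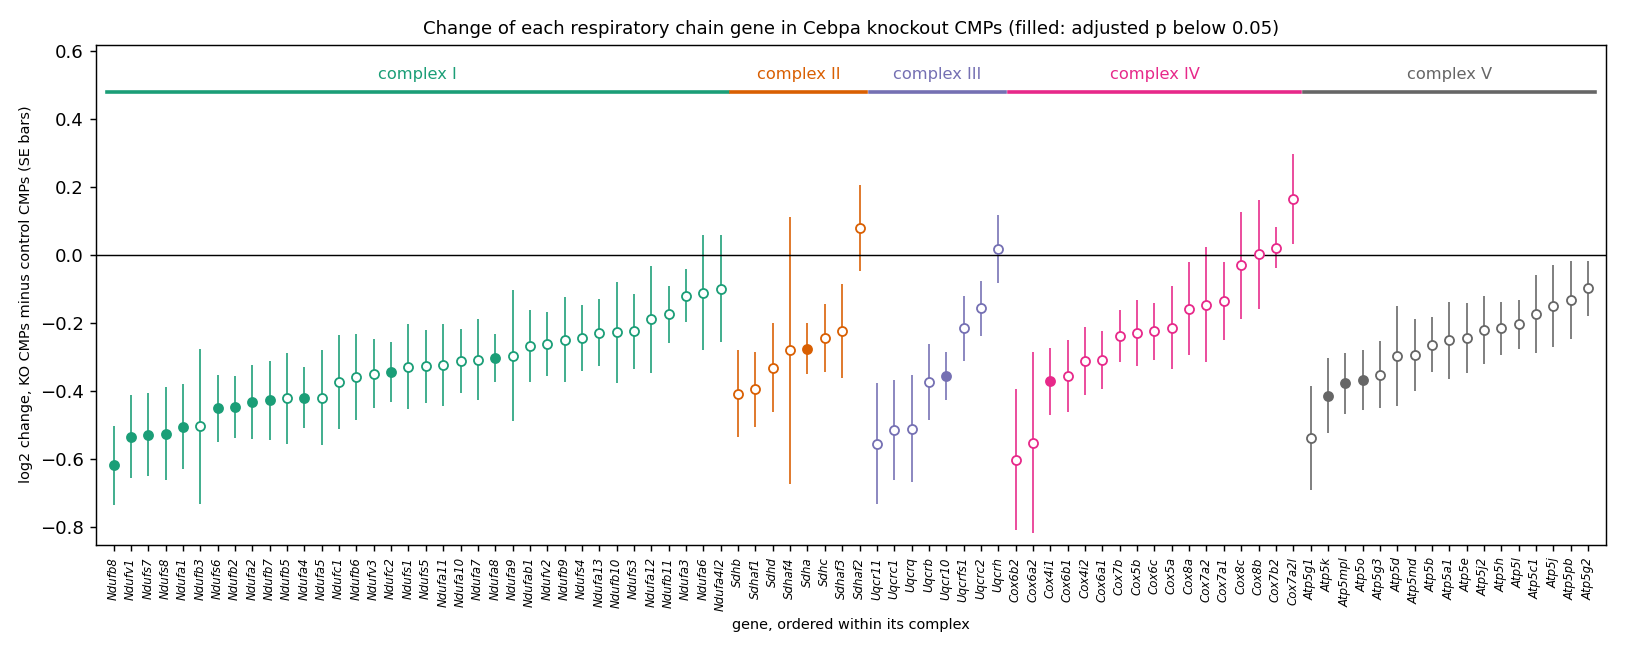
Log2 change of each of the 86 genes in knockout against control CMPs, grouped by complex, with bars of 1 standard error and called genes marked. All 36 complex I genes lie below 0, and 12 of them are called.

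The count of called genes rested on single arrays to a large degree, while the median did not. It was 4 without knockout replicate 1, 7 without knockout replicate 2, 8 without knockout replicate 3, 5 without control replicate 3 and 6 without control replicate 4, and the median change stayed between -0.32 and -0.25 whichever array was left out. Of the 8 genes named with an adjusted p in complex I, Ndufb8 (at most 0.0254) and Ndufb2 (at most 0.04) passed without any 1 array. Xist, which is transcribed in female cells, also differed between the groups: it was at 3.62, 4.14, 3.60 and 10.49 in knockout CMPs, against 10.36, 10.27, 10.36 and 4.30 in control CMPs. Within the arrays high in Xist (1 knockout, 3 control) the median change was -0.19 with 81 genes below 0, and within those low in Xist (3 knockout, 1 control) it was -0.35 with 80 below 0. With the Xist level as a covariate 3 genes were called, Ndufb8 and Ndufb2 among them. That was a share of 3.49%, close to the 2.97% of all genes called in that fit.

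Other mitochondrial gene lists were read in the same fit. Among 77 genes of the mitochondrial ribosome, 15 fell and 0 rose (median -0.28), with Mrpl33 at -0.74, Mrpl16 at -0.70 and Mrps18b at -0.67. Of 25 genes of protein import, 6 fell (median -0.27), led by Timm10 at -1.05. The assembly factors of complexes I, III, IV and V gave 3 of 39 lower (Lrpprc -0.54, Ndufaf4 -0.52, Ndufaf3 -0.40). Of the 14 electron carriers and feeders Cycs (cytochrome c) fell, by 0.56, of 16 genes of the TCA cycle Fh1 (fumarase) fell, by 0.46, and of 9 carriers and antioxidants Gpx1 fell, by 0.47. None of the 16 regulators of mitochondrial biogenesis passed (0 also at an unadjusted p below 0.05, median -0.10).

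Markers of cell types moved with this comparison. Of 4 genes of the sort gate Fcgr2b fell, by 1.15. Of 8 granulocyte-monocyte markers 6 fell (median -3.23), with Elane (neutrophil elastase) at -4.85. Mpo averaged 11.46 in knockout and 12.49 in control CMPs. Proliferation genes gave 2 of 13 lower (Aurkb -0.50, Aurka -0.43), with list medians of 8.22 to 8.57 on knockout arrays, against 8.66 to 8.89 on control arrays. The erythroid (6 genes, median -0.43), megakaryocyte (4, 0.42), mature neutrophil (6, -0.65), lymphocyte (5, -0.05), stem cell (5, -0.24) and stromal (6, 0.04) lists had no called gene by limma, with 1, 0, 3, 1, 0 and 0 genes at an unadjusted p below 0.05. Erythroid list medians ranged from 6.91 to 7.18 on knockout arrays and from 6.35 to 7.53 on control arrays. The part of these lists in the lower respiratory chain levels was not tested.

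Promoter sequences of the genes are given because respiratory chain genes are known to share binding sequences of NRF1, of ETS factors such as GABPA, and of YY1. RefSeq windows (GRCm38.p6, 250 bases before to 50 after a start) were matched for 71 of the 86 genes and 15613 of all genes. The NRF1 core GCATGCGC, read on both strands, was in 14.1% of the respiratory chain genes and 4.27% of all genes. The ETS sequence CCGGAAG was in 28.2%, against 13.6% of all genes, and the YY1 sequence AAGATGGC in 14.1%, against 3.77%. The Sp1 sequence GGGCGG was in 45.1%, against 52.9%. Genes lower in knockout CMPs held an NRF1, ETS or YY1 sequence in 7 of 15 genes with a window (46.7%), and the other genes in 27 of 56 (48.2%). By complex, ETS sequences were in 5 of 7 complex II genes and YY1 sequences in 7 of 32 complex I genes. A match describes letters, not a bound site.

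Stretches of 120 bases from these windows are shown for genes that fell in knockout CMPs (Ndufa8, Atp5k, Ndufb7), for genes higher in MLL-AF9 knockout CMPs than in knockout CMPs (Ndufa8, Sdhb, Ndufa11), and for Atp5j, which fell in control L-GMPs against control GMPs and holds an ETS and a YY1 sequence. Each runs 5′ to 3′ on the gene's strand, and capitals mark the NRF1, ETS and YY1 matches. Sp1 sequences are left in lower case, as in Ndufa8 and Sdhb. In Atp5k and Ndufa11 the NRF1 cores of the opposite strands overlap in the capitals. The NRF1 core is in Ndufa8 (chr2:36049339-36049458, minus strand), Atp5k (chr5:108434400-108434519, minus), Sdhb (chr4:140961151-140961270, plus) and Ndufa11 (chr17:56717642-56717761, plus). Ndufb7 (chr8:83566638-83566757, plus) holds the ETS sequence, and Atp5j lies at chr16:84834977-84835096 (minus).
Ndufa8: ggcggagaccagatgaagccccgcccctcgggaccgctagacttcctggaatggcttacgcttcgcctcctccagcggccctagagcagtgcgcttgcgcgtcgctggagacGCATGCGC
Atp5k: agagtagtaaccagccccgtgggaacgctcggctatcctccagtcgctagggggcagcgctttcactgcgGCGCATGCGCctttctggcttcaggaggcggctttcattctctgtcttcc
Ndufb7: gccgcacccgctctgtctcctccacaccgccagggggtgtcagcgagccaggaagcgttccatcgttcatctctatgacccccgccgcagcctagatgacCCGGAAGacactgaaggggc
Sdhb: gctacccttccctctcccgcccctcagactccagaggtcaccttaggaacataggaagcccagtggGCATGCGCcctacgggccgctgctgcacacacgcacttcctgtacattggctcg
Ndufa11: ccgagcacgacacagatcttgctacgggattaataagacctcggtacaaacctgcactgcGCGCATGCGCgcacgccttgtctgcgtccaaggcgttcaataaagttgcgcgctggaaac
Atp5j: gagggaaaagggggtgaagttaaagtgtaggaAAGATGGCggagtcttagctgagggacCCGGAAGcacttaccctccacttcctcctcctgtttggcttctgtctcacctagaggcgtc

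In control GMPs against control CMPs, 0 of the 86 genes were called by limma (1.05% of all genes were, 0.717% higher and 0.331% lower), 4 had an unadjusted p below 0.05, and the median change was 0.075. Arrays did not overlap for 3 genes higher (8.34% of all genes were) and 4 lower (7.97% of all genes were). Cox6b2, the testis form of a complex IV subunit, had levels of 7.99, 8.11 and 8.05 in GMPs, against 8.76, 8.96, 9.09 and 8.63 in CMPs. All GMP arrays were lower, but the change of -0.81 ± 0.22 did not pass (adjusted p = 0.13). Ndufs5, an accessory subunit of complex I that faces the intermembrane space, averaged 10.33 in GMPs and 10.01 in CMPs (change 0.32 ± 0.12, adjusted p = 0.357). Ndufb3 of the membrane arm (0.25) and Ndufa12 of the peripheral arm (-0.38) overlapped between the groups. With array weights Ndufs5 (adjusted p = 0.0263) and Cox6b2 (adjusted p = 0.00203) passed, 2.33% of the 86, where 6.3% of all genes did.

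Between L-GMPs of the knockout and control genotypes 1 gene differed. Ndufa5, an accessory subunit of the peripheral arm of complex I (probe set 10543442, chromosome 6), was at 7.76 in the primary and at 7.53 and 7.54 in the secondary knockout L-GMPs, against 8.27 and 8.71 (primary) and 8.65 and 8.62 (secondary) in control L-GMPs. No arrays overlapped, and the change was -0.92 ± 0.16, a 1.89-fold fall (adjusted p = 0.00385). It passed without any 1 array (at most 0.0147) and did not pass when the fit held the compared arrays only (adjusted p = 0.174). The 3 knockout arrays trace to 1 leukaemia, and only knockout recipients are labelled as given IL-3 and GM-CSF vectors, so genotype, that leukaemia and the vectors cannot be told apart.

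For the other 85 genes no change passed, where 1.16% of all genes fell and 2.1% rose (3.27% in all). The median change was -0.05, 38 genes were above 0 and 48 below, and 13 had an unadjusted p below 0.05. Arrays did not overlap for 3 genes higher (7.15% of all genes were) and 8 lower (6.76% of all genes were). Atp5d, a subunit of the rotor stalk of ATP synthase, averaged 9.29 in knockout and 8.80 in control L-GMPs (change 0.50 ± 0.16, adjusted p = 0.114). Sdhaf2 changed by 0.38, Cox6a2 (the heart and muscle form of a complex IV subunit) by -0.66 and Ndufa12 by -0.49, none past the threshold. Among the marker lists, Mecom of the 5 stem cell genes (4.29) and Pecam1 of the 6 stromal genes (0.90, with overlapping arrays) rose. Median levels of the stem cell list overlapped, at 5.07 to 5.67 in knockout and 4.63 to 5.36 in control L-GMPs. Those of the stromal list were 5.45 to 5.51 in knockout and 5.52 to 5.90 in control L-GMPs. Mature neutrophil markers had a median change of -1.07 with 0 of 6 called and 3 at an unadjusted p below 0.05, and lymphocyte markers one of -0.37 with 0 of 5 called and 2 at that level. Further, 0 of 8 granulocyte-monocyte genes (median 0.16) and 0 of 13 proliferation genes (median 0.17) were called by limma, with 2 and 1 at an unadjusted p below 0.05. Xist was at 10.46 to 10.92 in knockout L-GMPs, against 3.70, 10.97, 3.65 and 3.79 in control L-GMPs. The part of these differences was not tested. The count of respiratory chain genes was 5 without primary control replicate 1, 3 without secondary control replicate 1 and 2 without the primary knockout array.

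In knockout CMPs Ndufa5 was at 8.03, 8.03, 8.31 and 8.36, against 8.52, 8.58, 8.78 and 8.51 in control CMPs, lower on every array without passing the test (change -0.42). The knockout effect itself was set between the cell types. In L-GMPs minus CMPs the effects differed for 2 of the 86 genes (2.8% of all genes were called), both in the direction of a smaller fall or a rise in L-GMPs, and the median difference was 0.24, with 78 of the 86 above 0. Ndufv1 was at 7.87, 8.10 and 8.08 in knockout L-GMPs, against 7.45, 7.38, 8.22 and 7.61 in control L-GMPs, a change of 0.32 that overlapped and did not pass. Its difference of effects was 0.85 ± 0.18 (adjusted p = 0.0187), which passed without any 1 array and was lost with Xist as a covariate (adjusted p = 0.12). Ndufa4 gave a difference of 0.52 ± 0.13 (adjusted p = 0.0495), and its call was lost under 7 of 10 other settings. The count was 1 without secondary knockout L-GMP replicate 2, without any of control CMP replicates 1, 2, 3 and 4, and without any of knockout CMP replicates 1, 2 and 3. The largest negative differences, Ndufa5 at -0.50 and Ndufa12 at -0.30, did not pass.

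MLL-AF9 knockout CMPs had higher levels than knockout CMPs of the same genotype without the fusion gene. Of the 86 genes 13 rose and 0 fell, where 1.51% of all genes rose and 3.36% fell (4.88% in all). The median change was 0.22 and 80 genes were above 0. Arrays did not overlap for 32 genes higher (37.2%, against 6.93% of all genes) and 1 lower (against 9.4% of all genes). Complex I gave 7 of its 36 genes, complexes II and III 2 of 8 each, and complexes IV and V 1 of 17 each. Expression level bears on the called share. With only genes of a mean level of at least 6 in the fit, 15 respiratory chain genes rose and 0 fell. That was 18.8% of them, against 13.1% of all genes called in either direction. The groups also differ in transplantation, culture and retroviral infection, which cannot be told apart from MLL-AF9, and the knockout CMP arrays are the same ones that were set against control CMPs. Xist differed as well, at 10.49, 10.52 and 10.28 in MLL-AF9 knockout CMPs, against 3.62, 4.14, 3.60 and 10.49 in knockout CMPs. With the Xist level as a covariate 3 genes were called (3.49%, against 1.07% of all genes). Ndufa1, Ndufa2, Ndufa11, Atp5d and Cox6b2 were not among them.

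In complex I the electron-carrying subunit Ndufs7 (probe set 10364744, chromosome 10) was at 7.89, 8.14 and 8.12 in MLL-AF9 knockout CMPs, against 7.0, 7.33, 7.20 and 7.22 in knockout CMPs. The groups were well apart, with a change of 0.86 ± 0.13, 1.82-fold (adjusted p = 0.00223). Ndufa8, an accessory subunit facing the intermembrane space, was at 8.36, 8.47 and 8.37 in MLL-AF9 knockout CMPs, against 7.76, 7.91, 7.88 and 8.02 in knockout CMPs. Its spread within groups was small, and the change was 0.51 ± 0.08 (adjusted p = 0.00209). Ndufa1 changed by 0.68 ± 0.14 (adjusted p = 0.0103), Ndufa11 of the membrane arm by 0.52 ± 0.13 (adjusted p = 0.0322), and Ndufa2 by 0.52 ± 0.12 (adjusted p = 0.0196). Ndufa7 and Ndufv1 rose by 0.50 and 0.48.

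In complex II Sdhaf1, which helps to place iron-sulfur clusters in Sdhb, was at 8.29, 8.38 and 8.26 in MLL-AF9 knockout CMPs, against 7.36, 7.53, 7.68 and 7.54 in knockout CMPs. No array overlapped, and the change was 0.78 ± 0.12 (adjusted p = 0.00226). Sdhb, the iron-sulfur subunit itself, rose by 0.50 (adjusted p = 0.0454). In complex III Uqcrb (a quinone-binding subunit) and Uqcrfs1 (the Rieske iron-sulfur protein) rose by 0.48 and 0.40. In complex V Atp5d rose by 0.58.

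Cox6b2 (probe set 10559649, chromosome 7) had the largest change of the comparison. It was at 9.21, 9.31 and 9.18 in MLL-AF9 knockout CMPs, against 8.27, 8.48, 8.10 and 8.18 in knockout CMPs, a change of 0.98 ± 0.22 (adjusted p = 0.0215). Its call was lost without any of 5 of the 7 arrays (adjusted p of at most 0.0625). Ndufa1, Ndufa8, Ndufs7 and Sdhaf1 passed without any 1 array. Cox8a (-0.21) and Sdhaf2 (-0.10) had the lowest changes and did not pass. The count of called genes was 4 without MLL-AF9 replicate 1, 8 without MLL-AF9 replicate 2, and 4, 7, 5 and 7 without knockout replicates 1, 2, 3 and 4.

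Beside these, 13 of 77 genes of the mitochondrial ribosome rose and 0 fell, and 3 of 9 carriers and antioxidants rose (Prdx3 0.89, Gpx4 0.80, Sod2 0.48). Proliferation genes went the other way, 3 of 13 falling (Mki67 -1.20, Bub1 -0.98, Top2a -0.90). Of the granulocyte-monocyte markers 4 of 8 fell, with Mpo at -3.97. Cd34, part of the sort gate, fell by 1.83. The part of these differences in the respiratory chain levels was not tested.

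Within the MLL-AF9 knockout mice, some genes were called higher in CMPs than in KSLs, most of them in complexes III and V. Of the 86 genes 9 rose and 0 fell, where 2.02% of all genes rose and 1.3% fell (3.32% in all), and the median change was 0.16. Arrays did not overlap for 32 genes higher (37.2%, against 10.9% of all genes) and 3 lower (against 8.5% of all genes). Calls covered 4 of 8 genes in complex III, 3 of 17 in complex V, 1 of 8 in complex II, 1 of 17 in complex IV and 0 of 36 in complex I, where 13 had an unadjusted p below 0.05. Rising genes of complex III were Uqcr11, Uqcrq and Uqcr10, all small accessory subunits, and Uqcrc1, a core protein. With only genes of a mean level of at least 6 in the fit, 14 respiratory chain genes rose and 0 fell. That was 17.5% of them, against 8.03% of all genes called in either direction.

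Uqcr11 (probe set 10370833, chromosome 10) was at 9.57, 9.63 and 9.62 in MLL-AF9 CMPs, against 8.09 and 8.93 in KSLs. The CMP arrays were nearly equal and the KSL arrays far apart, with a change of 1.10 ± 0.23, 2.14-fold (adjusted p = 0.0187). Uqcrq changed by 0.80 ± 0.20 (adjusted p = 0.0424), Uqcrc1 by 0.73 ± 0.19 (adjusted p = 0.0466) and Uqcr10 by 0.37 ± 0.09 (adjusted p = 0.0397). In complex V Atp5b, the catalytic subunit, was at 10.78, 10.98 and 10.94 in CMPs, against 10.47 and 10.13 in KSLs. It changed by 0.60 ± 0.11 (adjusted p = 0.00675), and it alone of the 8 genes with the largest rises passed without any 1 array. Atp5g1, which encodes subunit c of the rotor ring, changed by 0.97 ± 0.20 (adjusted p = 0.0157) and Atp5d by 0.84 ± 0.19 (adjusted p = 0.0264). Sdhc, a membrane anchor of complex II, rose by 0.64, and Cox4i1 by 0.59.

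Both KSL arrays came from mice that also gave CMP arrays, and same-mouse arrays deviated together (r = 0.45 and 0.26 over all genes). With the mouse as a block 16 genes were called (18.6%, against 5.76% of all genes), 15 higher and 1 lower. The last was Atp5pb of the peripheral stalk of complex V (adjusted p = 0.0149 in limma's test). Without blocking Atp5pb changed by -0.43 and Cox6a2 by -1.05, neither past the threshold. The count was 18 without KSL replicate 2. These groups were also the noisiest, with a median absolute residual of 0.161 (CMPs) and 0.155 (KSLs) over all genes, against 0.0762 in control CMPs. With array weights, which count such arrays less, 0 of the 86 genes were called. Only 0.015% of all genes were called in that fit, so the 0 is not particular to the respiratory chain. Beside the respiratory chain, 11 of 77 genes of the mitochondrial ribosome, 6 of 25 import genes and 2 of 13 proliferation genes rose.

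**Figure D3:**
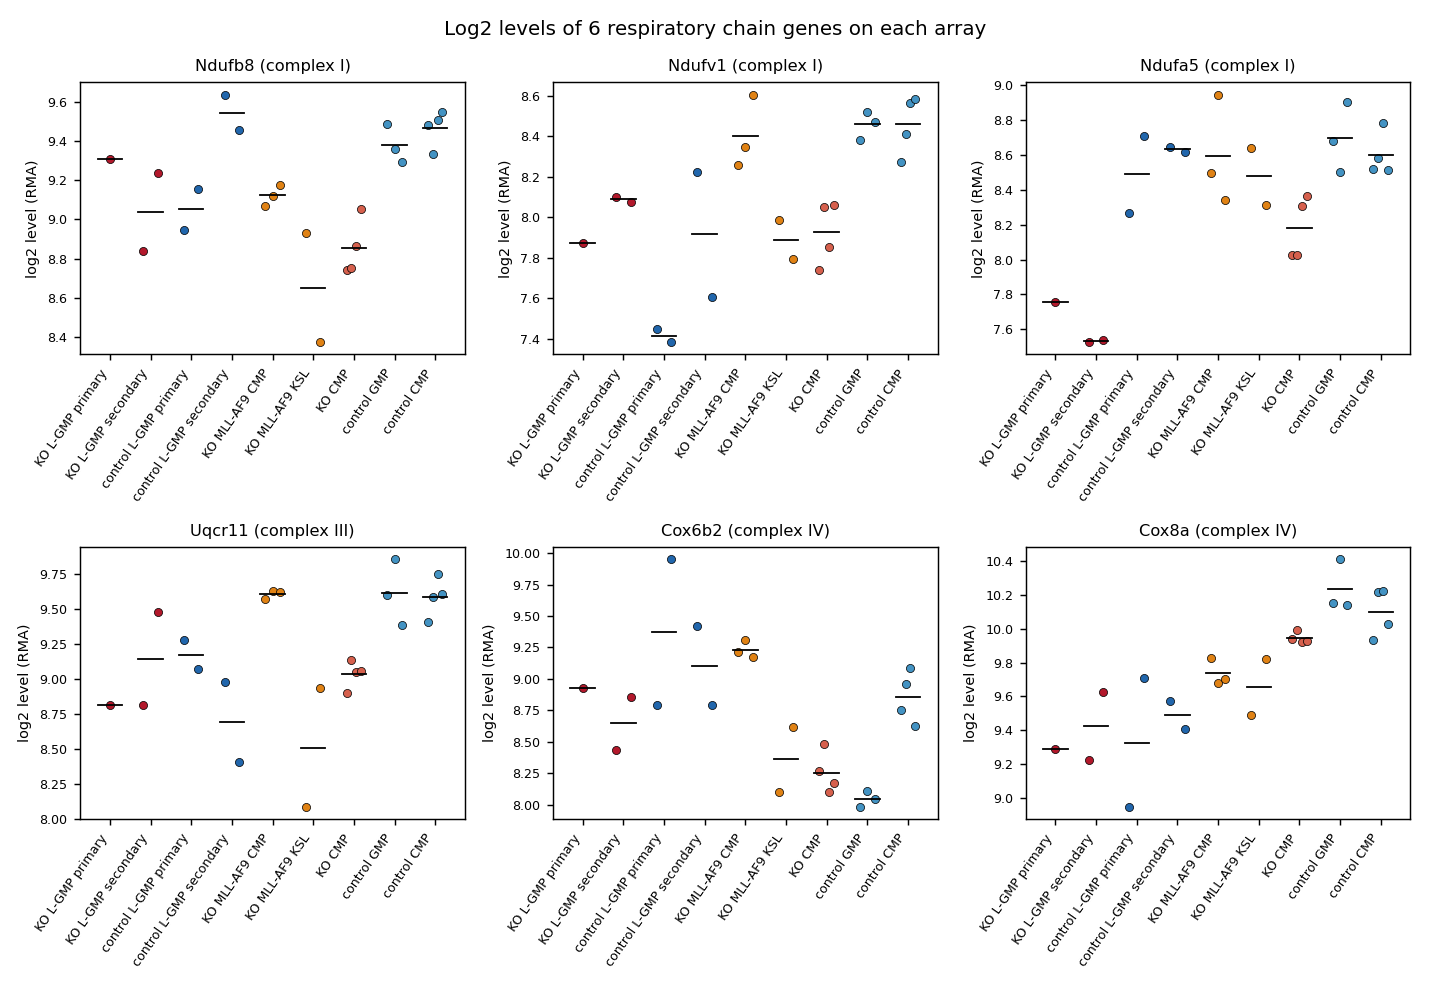
Log2 level of 6 genes (Ndufb8, Ndufv1, Ndufa5, Uqcr11, Cox6b2 and Cox8a) on every array, by group; points are arrays and bars are group means. Ndufa5 is lowest in the 3 knockout L-GMP arrays (7.53 to 7.76) and Cox6b2 in the control GMPs (7.99 to 8.11).

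Control L-GMPs differed from control GMPs at genes of all 5 complexes. Of the 86 genes 26 fell and 3 rose, in a comparison where 14.7% of all genes fell and 10.6% rose (25.3% in all). The median change was -0.15, beside -0.02 over all genes. With quantile normalization 16 genes fell and 5 rose, a called share of 24.4%, against 24.9% of all genes. The median was then -0.09 (0 over all genes). With centred arrays 22 fell and 4 rose, a share of 30.2%, against 26.1% of all genes. The median was then -0.08 (0.045 over all genes). Among genes with a mean level of at least 8, the called share was 37.5% for the respiratory chain, against 28.6% for all genes, and the median changes were -0.22 and -0.12. Arrays did not overlap for 28 genes lower (32.6%, against 17.7% of all genes) and 4 higher (against 13.1% of all genes). Calls were spread unevenly: 62.5% of complex III, 50% of complex II, 47.1% of complex V, 41.2% of complex IV and 13.9% of complex I.

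Cox8a, the common form of the smallest complex IV subunit, was at 8.95, 9.71, 9.57 and 9.41 in control L-GMPs, against 10.15, 10.41 and 10.14 in control GMPs. The L-GMP arrays were all lower, by -0.83 ± 0.15 in the mean (adjusted p = 0.00147). Ndufs5 (probe set 10516211, chromosome 4) was at 9.70, 9.39, 9.64 and 9.46 in control L-GMPs, against 10.37, 10.33 and 10.29 in control GMPs. It changed by -0.78 ± 0.12 (adjusted p = 0.000418). Ndufv1 changed by -0.79 ± 0.13 (adjusted p = 0.000879).

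Of the succinate dehydrogenase subunits 3 of 4 fell. Sdhd, a membrane anchor, was at 8.38, 8.39, 8.43 and 7.80 in control L-GMPs, against 8.85, 8.95 and 8.89 in control GMPs (change -0.65 ± 0.14, adjusted p = 0.0046). Sdhc, the other anchor, and Sdha fell by 0.55 and 0.29, and Sdhb did not pass. In complex III Uqcr11 (-0.68 ± 0.19, adjusted p = 0.0186), Uqcrc1 (-0.62 ± 0.16, adjusted p = 0.0117) and Uqcr10 (-0.53) fell, while Uqcrb rose by 0.34 (adjusted p = 0.0479, lost under 6 of 10 other settings and without any of 6 of the 7 arrays). In complex V Atp5g1 (-0.81 ± 0.17, adjusted p = 0.00318) and Atp5d (-0.60 ± 0.16, adjusted p = 0.0132) led 8 genes that fell. The Atp5g1 change was -0.23 and not called (adjusted p = 0.204) when its probe sets were averaged.

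The opposite direction was rare and led by Cox6b2, at 8.79, 9.95, 9.42 and 8.79 in control L-GMPs, against 7.99, 8.11 and 8.05 in control GMPs. The L-GMP arrays were all higher but widely spread, and the change was 1.19 ± 0.22, 2.28-fold (adjusted p = 0.00194). Ndufa12 rose by 0.62 with overlapping arrays. Cox6b2, Cox8a, Atp5g1, Ndufv1, Ndufs5 and Sdhd passed without any 1 array. The count was 18 without control GMP replicate 2. Proliferation genes fell alongside, 12 of 13 (median -0.94, list medians of 7.86 to 8.37 in control L-GMPs and 9.01 to 9.05 in control GMPs), as did 31 of 77 genes of the mitochondrial ribosome, 15 of 39 assembly factors, 10 of 25 import genes and 7 of 16 TCA cycle genes (Ogdh -1.21, Idh2 -1.02). Lymphocyte markers rose at 4 of 5 genes (median 0.57), and stromal markers at 2 of 6. The part of proliferation and of these markers was not tested, and transplantation and culture cannot be told apart from leukaemia here.

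**Figure D4:**
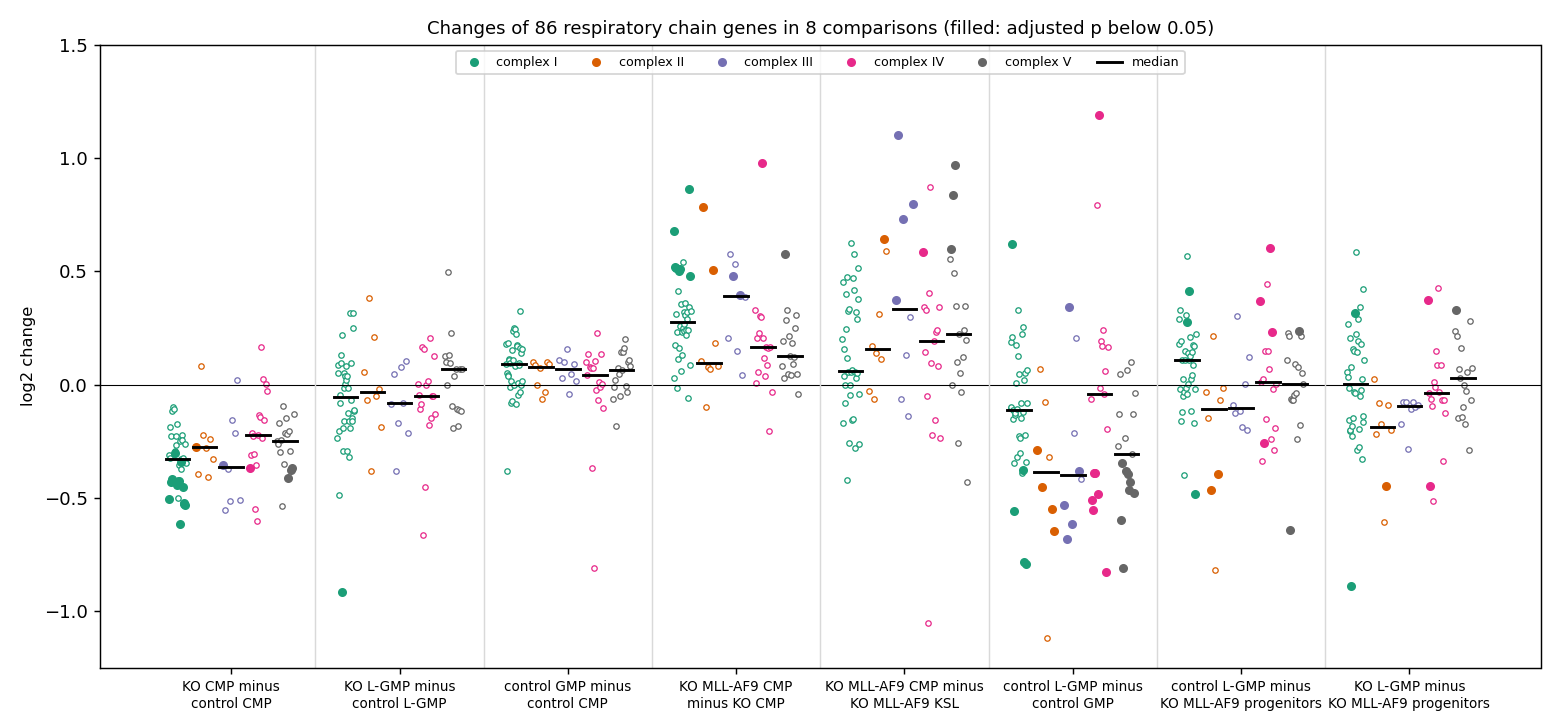
Log2 changes of the 86 genes in each comparison, by complex, with called genes filled and a line at the median of each complex. For complex I the median is -0.33 for knockout against control CMPs and 0.28 for MLL-AF9 knockout CMPs against knockout CMPs.

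Against the non-leukaemic MLL-AF9 knockout cells (the mean of CMPs and KSLs), L-GMPs showed few changes at these genes. In control L-GMPs 6 genes rose and 5 fell, where 8.51% of all genes rose and 10.5% fell. With centred arrays 10 rose and 3 fell (15.1%, against 19.8% of all genes). Without centring the called share was 12.8% for the respiratory chain and 19% for all genes. The median change was 0.006. Rises were Cox7a2 (0.60), Ndufb8 (0.41), Cox4i1 (0.37), Ndufb11 (0.28), Atp5l (0.24) and Cox7b (0.23). Falls were Atp5d (-0.64), Ndufv1 (-0.48), Sdhaf2 (-0.47), Sdhb (-0.40) and Cox6a1 (-0.26). Without overlap between arrays, 0 genes were higher (3.3% of all genes were) and 1 lower (4.43% of all genes were). That gene was Sdhaf2, at 7.17, 6.99, 7.25 and 6.90 in control L-GMPs, against 7.54, 7.33 and 7.68 (CMPs) and 7.84 and 7.32 (KSLs), and its adjusted p of 0.0133 was 0.0717 without secondary control replicate 2. The count was 6 without secondary control replicate 1, 6 without secondary control replicate 2 and 7 without primary control replicate 2. Genotype and leukaemia cannot be told apart in this comparison.

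In knockout L-GMPs against the same cells, with genotype shared, 3 genes rose and 3 fell, where 7.27% of all genes rose and 5.93% fell (13.2% in all). With centred arrays 4 rose and 1 fell (5.81%, against 13.5% of all genes). Ndufa5 averaged 7.65 in knockout L-GMPs and 8.54 in the non-leukaemic cells, at 8.50, 8.95 and 8.34 in CMPs and 8.64 and 8.31 in KSLs. All knockout L-GMP arrays were lower, with a change of -0.89 ± 0.15 (adjusted p = 0.0007). The Ndufa5 call was lost when the fit held the compared arrays only. The 3 knockout L-GMP arrays trace to 1 leukaemia, and the labels do not say whether the non-leukaemic donors received the vectors. Leukaemia in general, that 1 leukaemia and the vectors thus cannot be told apart. Sdhb fell by 0.45 (adjusted p = 0.0405, lost without any of 6 of the 8 arrays) and Cox5a, a matrix-facing subunit of complex IV, by 0.45 (adjusted p = 0.0334). Cox4i1 rose by 0.37, Atp5b by 0.33 and Ndufb11 by 0.31. Groups lay apart on all arrays for 1 gene higher (6.61% of all genes were) and 4 lower (6.01% of all genes were). In both of these comparisons all 8 granulocyte-monocyte markers rose (median 4.67 in knockout and 3.75 in control L-GMPs), and their part in the respiratory chain values was not tested. The median change for knockout L-GMPs was -0.04, and the count was 12 without KSL replicate 1 and 3 without MLL-AF9 CMP replicate 1.

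All 4 subunits of succinate dehydrogenase passed the F test. Sdha had the narrowest range of the 4, 0.38 between group means, highest in control GMPs (9.37, 9.29 and 9.38) and lowest in knockout CMPs (8.86, 8.93, 9.05 and 9.04). Sdhb ranged over 0.65, highest in MLL-AF9 knockout CMPs (8.80, 9.03 and 8.68) and lowest in primary control L-GMPs (7.97 and 8.41). Sdhc ranged over 0.84, highest in control GMPs (9.47, 9.64 and 9.65) and lowest in secondary control L-GMPs (8.92 and 8.58). Sdhd ranged over 0.93, highest in control GMPs too and lowest in MLL-AF9 knockout KSLs (7.85 and 8.08). Sdhaf4, an assembly factor, had the widest range of all 86 genes (1.68), but 1 primary control L-GMP array (3.74, beside 6.05 on the other) set it, and its F test did not pass (adjusted p = 0.139).

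Of 7 tissue-specific forms of complex IV, 3 differed between groups. Cox8b and Cox8c, the muscle and testis forms, ranged from 4.14 to 5.09 and from 4.08 to 5.08 over all arrays, and neither differed between groups (adjusted p = 0.729 and 0.943 in limma's F test). Cox7a1 (heart and muscle) did not pass either (adjusted p = 0.119 in limma's F test), nor did Cox7b2 (adjusted p = 0.17). Cox4i2, the lung form, stayed between 4.75 and 5.67 and was lower in control L-GMPs than in control GMPs by -0.51 (adjusted p = 0.00405). Cox6a2 was highest on 1 primary control L-GMP array (7.76), both MLL-AF9 KSL arrays (7.58 and 7.23) and 1 MLL-AF9 CMP array (7.33), while the other arrays of the L-GMP and CMP groups were lower. Cox6b2 had no array below 7.99 and a range of 1.32 between group means. Cox6a2 (range 1.36, adjusted p = 0.0354), Cox4i2 (range 0.71, adjusted p = 0.00148) and Cox6b2 (adjusted p = 0.00401) passed limma's F test. Of the common forms, Cox8a and Cox4i1 differed between groups, with ranges of 0.945 and 0.731. Cox6a1, Cox6b1 and Cox7b differed too, with ranges of 0.49, 0.54 and 0.47, and Cox7a2 did not pass (adjusted p = 0.0708 in limma's F test).

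Subunit c of ATP synthase is made from Atp5g1, Atp5g2 and Atp5g3, which encode the same mature protein. Atp5g1 ranged over 1.23 between groups, Atp5g3 over 0.69 and Atp5g2 over 0.39, and all 3 passed the F test. Atp5g2 was steady, between 11.11 and 11.90 on all arrays. In complex III Uqcrfs1 varied most (range 1.20, adjusted p = 0.000114 in limma's F test), and its extremes were both control L-GMPs: 7.64 and 7.78 in primary, against 8.71 and 9.10 in secondary recipients. In complex I Ndufa6 was likewise lowest in primary control L-GMPs (8.10 and 7.84) and at 9.14 and 9.07 in secondary ones. Its highest array was an MLL-AF9 KSL array at 9.69, whose partner was at 8.60. Ndufb3 was at 7.48 and 6.29 on the same KSL pair and highest in secondary control L-GMPs (8.07 and 8.08). Primary and secondary control L-GMPs were not tested against each other.

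**Figure D5:**
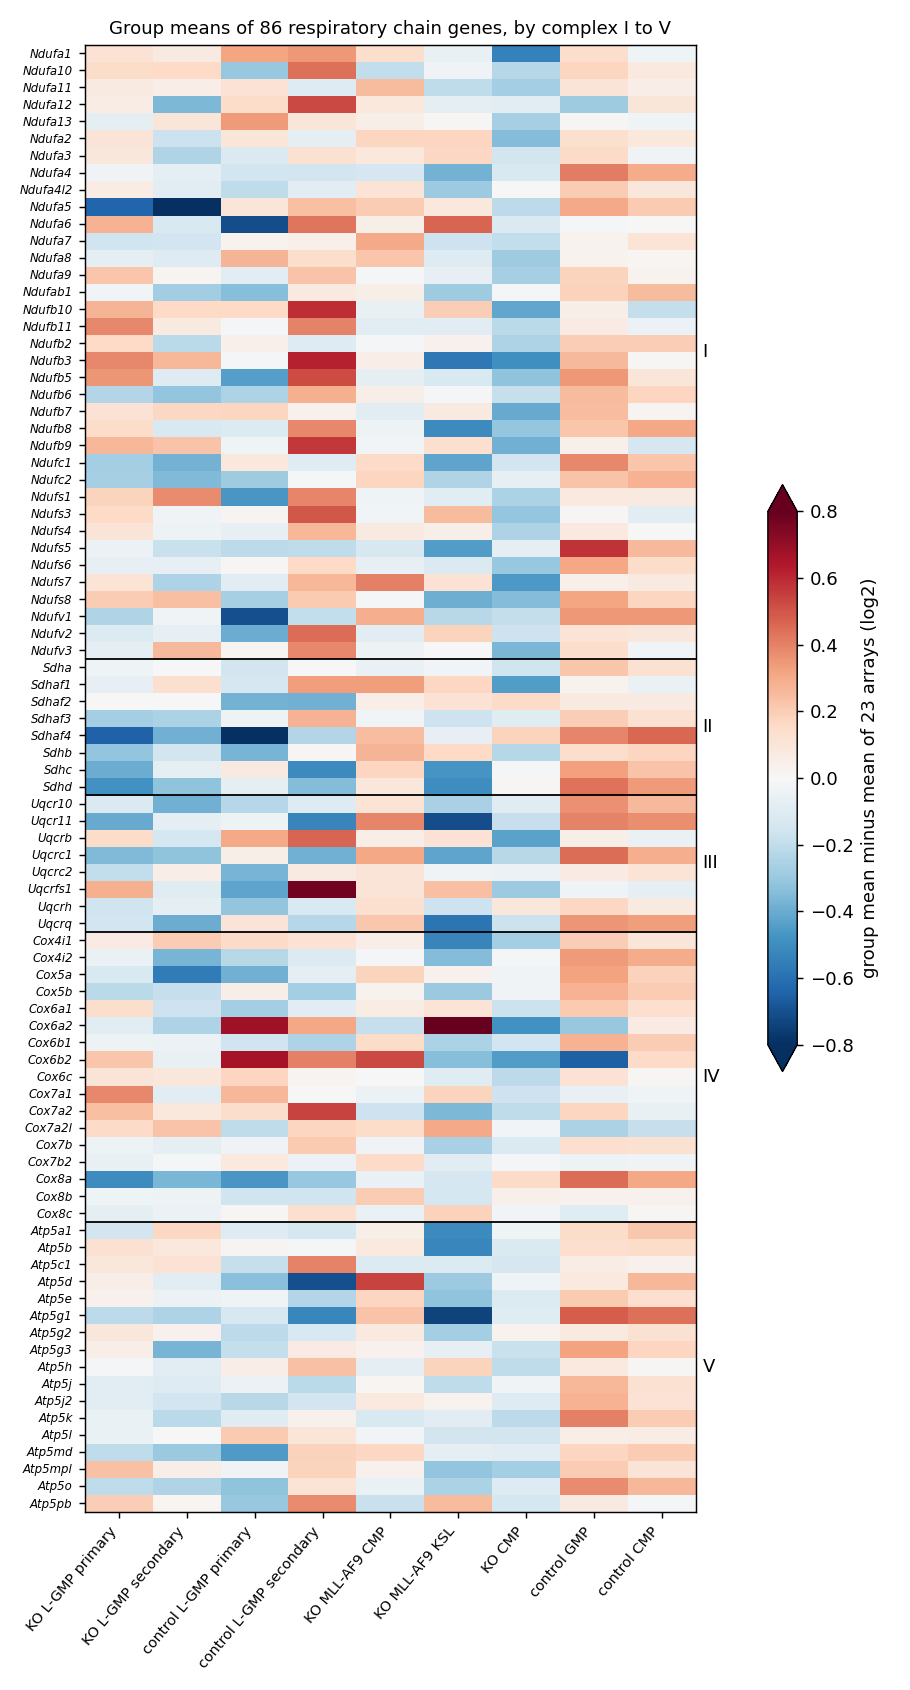
Group means of the 86 genes as differences from each gene's mean over the 23 arrays, ordered by complex; red is above that mean and blue below. Primary and secondary control L-GMPs part at Uqcrfs1 and Ndufa6.

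Over the 8 comparisons between groups, 52 of the 86 genes were called at least once and 34 never, where 42.9% of all genes, and 60.8% of all genes with a mean level of at least 8, were called at least once. By complex these were 18 of 36 in complex I, 6 of 8 in complex II, 7 of 8 in complex III, 10 of 17 in complex IV and 11 of 17 in complex V.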

How the data were processed

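RNA of 23 sorted samples was measured on Affymetrix Mouse Gene 1.0 ST arrays after whole-transcriptome amplification, per the labels. The deposited values are log2 signals, which the submitters' processing notes credit to RMA without a version. Probe sets were named from the platform annotation: 21640 of 34760 carried 1 symbol, 1321 several and 11799 none, and only the first kind were used. The genes and lists were chosen with earlier results of these data known.

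From these values, 9 group means were fitted over all 23 arrays with limma 3.58.1 (R 4.3.3), with a trend in the prior variance and Benjamini-Hochberg adjustment over 19937 genes. Tests are two-sided. Scripts were tested on simulated data. Genes were named by a rule: in each comparison, called genes without overlap between arrays, up to the 8 largest changes each way (the 2 largest as values where fewer than 2 passed); per complex the 2 widest ranges of group means; the succinate dehydrogenase subunits; the isoform sets; and up to 4 called genes per list. Others were picked after their values were seen. Alternatives changed the weights, arrays, filter, probe set rule, scaling or blocks, and each array was left out in turn. The split by Xist level was chosen after seeing the data. Replicate numbers paired samples only between MLL-AF9 CMPs and KSLs, which share mice per the labels. Array signal has no read depth, so the number of arrays limits the precision. Lists read besides the respiratory chain were the mitochondrial and cell type lists whose results the report gives.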

Additional observations from a re-analysis of the deposited data

Results flagged for a closer look

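The knockout effect differed between cell types for 2 genes by the interaction term of limma's fit, a share of 2.33%, where 2.8% of all genes differed. With the Xist level as a covariate 0 of the 86 were called, where 1.21% of all genes were. Ndufv1 had a difference of 0.849 (effect in L-GMPs minus effect in CMPs, adjusted p = 0.0187), with changes of 0.32 in L-GMPs and -0.53 in CMPs. Ndufa4 had a difference of 0.515 (adjusted p = 0.0495), with changes of 0.10 in L-GMPs and -0.42 in CMPs. The L-GMP arrays of the knockout come from 1 leukaemia. Stray arrays were looked for only in knockout and control CMPs, the groups with 4 arrays. There no single array stood far from its group among the 38 groups of values looked at, where chance gives about 1 in 20. The L-GMP, GMP and MLL-AF9 groups hold fewer arrays and were not looked at in this way.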

How the results depend on the processing

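No change of a named gene reversed under any alternative or with any array left out. The medians kept their sign under each alternative setting. With arrays left out the median for control L-GMPs against non-leukaemic cells ran from 0 to 0.036, and the other medians kept their sign. Counts of called genes moved more. Beside each count is the share of the respiratory chain genes called, against the share of all genes called under the same setting. For knockout against control CMPs (18) the count was 57 with array weights (66.3%, against 18.9%). It was 48 with only the arrays compared (55.8%, against 16.2%) and 29 with a mean level of at least 6 (36.2%, against 12.7%). With Xist as a covariate it was 3 (3.49%, against 2.97%), and the median was -0.194 within Xist-high arrays. For control GMPs against CMPs (0) it was 2 with array weights (2.33%, against 6.3%) and 3 with only the arrays compared (3.49%, against 3.23%). For knockout against control L-GMPs (1) it was 0 with only the arrays compared (0%, against 0.0552%). It was 2 (2.33%) with no trend (against 3.39%), with quantile normalization (against 3.36%) or with Xist (against 2.43%). For control L-GMPs against non-leukaemic cells (11) it was 0 with array weights (0%, against 6.27%). It was 0 with only the arrays compared (0%, against 2.47%) and 6 with Xist (6.98%, against 11.5%). For knockout L-GMPs against the same cells (6) it was 2 with array weights (2.33%, against 10.5%). It was 0 with only the arrays compared (0%, against 1.74%) and 1 with origin as a random block (1.16%, against 10%). For MLL-AF9 CMPs against KSLs (9) it was 0 with array weights (0%, against 0.015%) and 0 with only the arrays compared (0%, against 0%). It was 14 with a mean level of at least 6 (17.5%, against 8.03%). With the replicate block it was 16 (18.6%, against 5.76%) and with the origin block 15 (17.4%, against 5.24%). For MLL-AF9 CMPs against knockout CMPs (13) it was 3 with array weights (3.49%, against 1.68%). It was 8 with the replicate block (9.3%, against 4.36%) and 3 with Xist (3.49%, against 1.07%). For control L-GMPs against GMPs (29) it was 18 with only the arrays compared (20.9%, against 16.3%). For the difference of effects (2) it was 4 with array weights (4.65%, against 6.42%). It was 5 with only the arrays compared (5.81%, against 7.93%) or a mean level of at least 6 (6.25%, against 6.05%). It was 1 (1.16%) with averaged probe sets (against 2.86%), centred arrays (2.82%), quantile normalization (2.74%) or the origin block (2.27%). With Xist it was 0 (0%, against 1.21%).

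With arrays left out in turn the counts were 4 to 14 (knockout against control CMPs), 0 to 0 (GMPs against CMPs), 1 to 5 (knockout against control L-GMPs), 6 to 16 and 3 to 12 (control and knockout L-GMPs against non-leukaemic cells), 6 to 18 (MLL-AF9 CMPs against KSLs), 4 to 13 (against knockout CMPs), 18 to 36 (control L-GMPs against GMPs), 1 to 3 (difference of effects) and 59 to 72 (F test). The cause of these shifts was not tested. For named genes 539 values kept direction and stayed called or stayed not called under the other settings, 74 lost the call and 7 gained it. The 539 thus include genes that had no call to lose. Same-numbered samples of the other groups share only a number (r of 0.077, 0.063, -0.004 and -0.205 for knockout and control CMPs).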
